A study of Danio rerio with 8 samples.

Results

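The genes described here are the spliceosome proteins and splicing regulators of the zebrafish retina whose symbols begin with sf3a, sf3b, snrp, prpf, srsf, u2af, hnrnp, or lsm followed by a digit. They were found through RefSeq accessions, which name 27369 of the 43603 array probes. In all, 74 such genes were measured by 163 probes, out of 13143 genes with a symbol. A further 18 symbols with these stems in the RefSeq table, sf3b1, snrpb2 and hnrnpa1a among them, had no probe matched by accession, and were not analysed here. Probes named otherwise were given no symbol, so that these genes may still have probes on the array. Retinal RNA was measured on 8 one-colour arrays, 4 for crush pools and 4 for control pools. A crush pool held right retinae of 4 adult wild-type fish taken 3 days after the right optic nerve was crushed, which injures the axons of the retinal ganglion cells. A control pool held right retinae of 4 intact adult wild-type fish that had no operation, so that the effect of anaesthesia and surgery is not separated from that of the crush. Whole retinae were used, males and females were not distinguished, and no tissue of the crushed nerve itself was measured.

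Introns are removed from pre-mRNA by the spliceosome, which is built from small nuclear ribonucleoproteins (snRNPs), each an RNA wrapped by a ring of Sm or LSm proteins together with proteins of its own. The U1 snRNP recognises the 5′ splice site, the U2 snRNP with the SF3A and SF3B complexes takes the branch point, U2AF binds the pyrimidine tract and 3′ splice site, and the PRPF proteins carry the later assembly and rearrangement with the U4/U6.U5 tri-snRNP. SR proteins, encoded by the srsf genes, and hnRNPs bind exons and introns and set which splice sites are chosen. Retinal neurons are known to be sensitive to this machinery, since mutations of human PRPF genes cause a dominant form of retinitis pigmentosa. The roles given below are those of the human and yeast proteins.

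Values are log2 signals after background correction and quantile normalisation. Each gene is read from 1 probe, the brightest by its mean signal over the 8 arrays. A gene passed, and was called over- or under-expressed, at a fold change of 1.5 or more (0.585 on the log2 scale) with an adjusted p of at most 0.05 in limma's moderated test, which is two-sided, with Benjamini-Hochberg adjustment across all 43601 tested probes. The median spot intensity was 181.5 to 193 on the crush arrays and 153 to 194.5 on the control arrays, and array-to-array correlations across probes were 0.979 to 0.991 within groups and 0.973 to 0.986 between groups. All crush arrays were on 1 slide and all control arrays on another, so that slide and group cannot be told apart. All 6 measured rod genes were well above background on all 8 arrays, as the labelled tissue requires. Pools are the replicates, and precision is limited by their small number. In whole retina, more cells that express a gene and more of its RNA in each cell cannot be told apart.

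No splicing gene of the 74 was over-expressed and none was under-expressed after crush, where 2.47% of all genes with a symbol passed upwards and 0.883% downwards. At an unadjusted p of at most 0.05 in limma, 16 of the 74 were higher and 2 lower, against 12.9% and 9.06% of all genes. The median log2 fold change of the 74 was 0.07, against 0.01 over all 13143 genes, and the single values lay between -0.44 for prpf3 and 0.46 for snrpg. The standard error of the log2 fold change ran from 0.09 to 0.34 with a median of 0.11, against a median of 0.15 over all genes. For 63 of the 74 genes the 95% interval of the change lay wholly inside 1.5-fold in either direction, which was so for 51.5% of all genes. It was also so for 86.6% of the 82 other core spliceosome genes read below. For the other 11 genes, listed below with their families, the interval reached past 1.5-fold on 1 side or both. All 74 were well above background on all 8 arrays by the test of the scanner software, as were 80.7% of all genes.

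**Figure D1:**
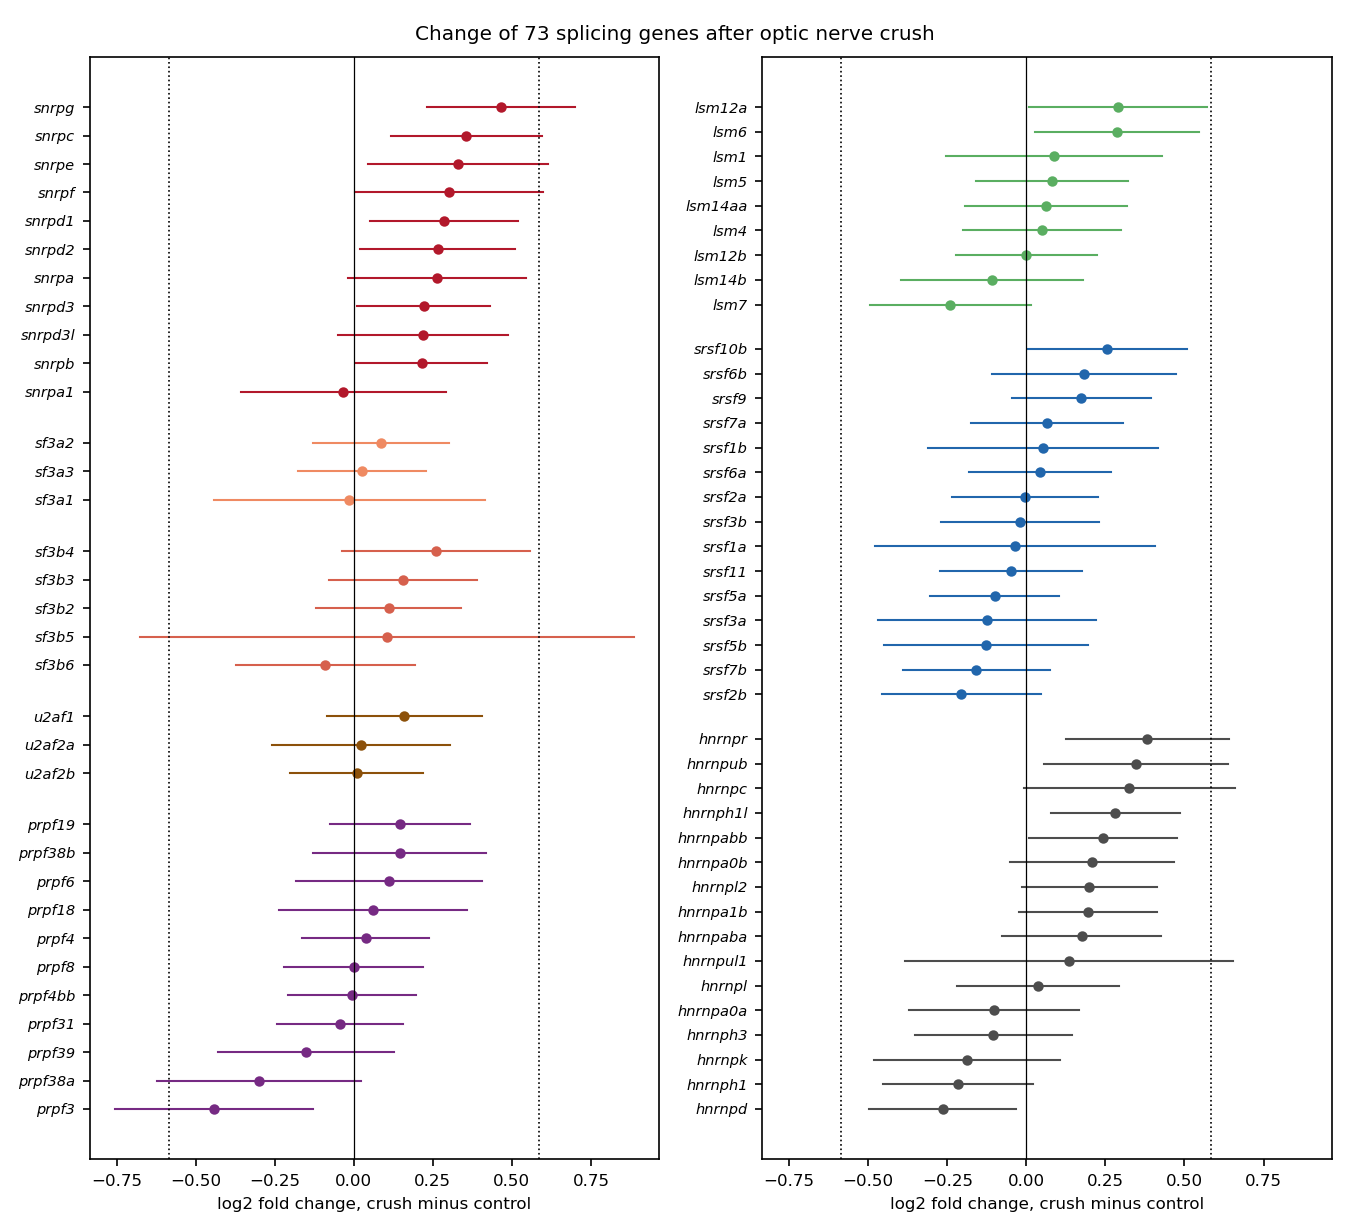
Log2 fold change (crush minus control) of 73 of the 74 splicing genes, grouped by symbol stem, with points for the limma estimate and lines for its 95% interval over 4 crush and 4 control pools. Dotted lines mark 1.5-fold either way (0.585 on the log2 scale), and no point reaches them.

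The genes did not spread evenly about 0. In all, 48 of the 74 (64.9%) had a higher mean in the crush pools, against 51.4% of all genes, and 15 (20.3%) had every crush pool above every control pool, against 10.3%. Only hnrnpd had every crush pool below every control pool, against 6.47% of all genes. Of the 15 genes, 7 were among the 11 snrp genes, 6 among the 16 hnrnp genes, 1 was a prpf and 1 an srsf gene. Of the 82 other core spliceosome genes read below, 62.2% were higher and 9.76% had every crush pool above every control pool. Over all 180 genes of the 4 other splicing lists read below, these shares were 57.8% and 11.7%. Under median scaling in place of quantile normalisation, 61 of the 74 were higher and their median log2 fold change was 0.20, with 0.04 over all genes. The size of this shift thus depends on how the arrays are scaled, and the share of all genes that were higher under this scaling was not computed. With the mean of all probes of a gene in place of the brightest, 45 of the 74 were higher and their median was 0.05, with 0.01 over all genes. The pools of a group were not alike: of the 4 controls, control pool 4 was the highest in 40 of the 74 genes, and of the 4 crush pools, crush pool 1 was the lowest in 30. Over all genes with a symbol, the median difference from the gene's control mean was likewise highest in control pool 4 among controls, at 0.04 against -0.02 to -0.01. Among crush pools this median was lowest in crush pool 2, at -0.004, with crush pool 1 at 0.02. By family, the median log2 fold change was 0.27 for the 11 snrp genes, 0.19 for the 16 hnrnp genes, 0.11 for the 5 sf3b genes, 0.06 for the 9 lsm genes, 0.03 for the 3 sf3a genes, 0.02 for the 3 u2af genes, 0.02 for the 12 prpf genes and -0.02 for the 15 srsf genes.

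**Figure D2:**
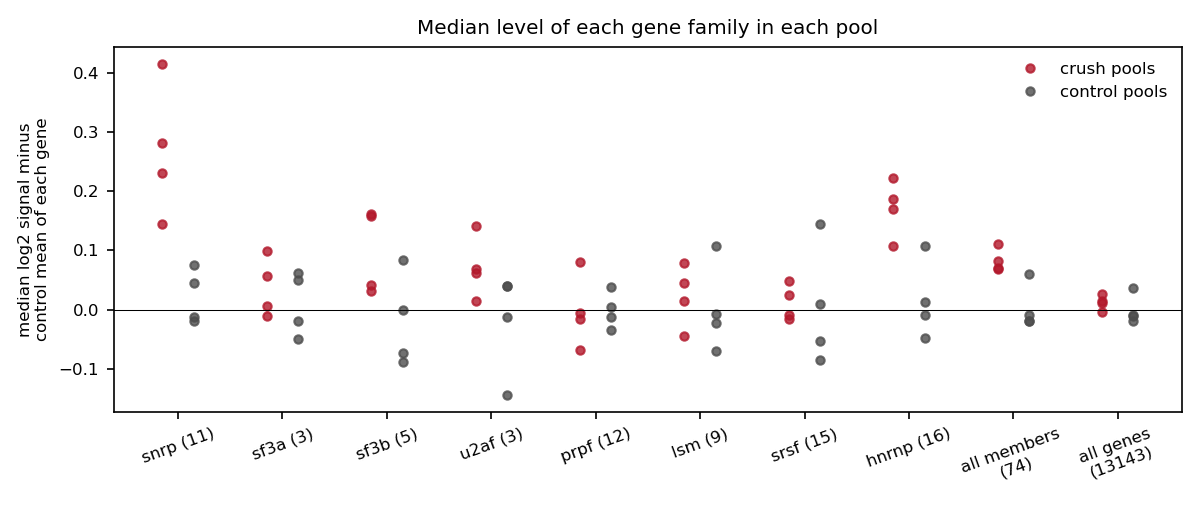
Median over the genes of each family of the log2 signal minus that gene's control mean, 1 point for each pool, with crush pools on the left and control pools on the right and the number of genes in brackets. The snrp family is the one whose crush pools stand farthest above its control pools, at 0.14 to 0.42 against -0.02 to 0.07.

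The snrp genes encode the proteins of the snRNP particles. The ring that is shared by U1, U2, U4 and U5 is made of the Sm proteins B, D1, D2, D3, E, F and G, which on this array were read from snrpb, snrpd1, snrpd2, snrpd3 and its paralogue snrpd3l, snrpe, snrpf and snrpg. The division of the snrp genes into this ring and the rest was made after the values were seen. All 8 ring genes had a higher mean in the crush pools, with log2 fold changes between 0.21 and 0.46 and a median of 0.28, and all 12 of their probes were higher. In 6 of the 8 every crush pool stood above every control pool. Over all genes 51.4% had a higher mean and 10.3% had every crush pool above, and since the ring was picked with its values in view, these shares are given for scale and not as a test. The 8 remained higher under each of the 17 other fits, with a median between 0.23 and 0.40. These fits reuse the same arrays, so that they are not a separate test of the group.

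The largest difference of the ring was that of snrpg, whose protein SmG lies beside SmE. Its log2 signal was 11.84, 12.12, 11.90 and 12.07 in crush pools 1 to 4, against 11.46, 11.59, 11.50 and 11.50 in control pools 1 to 4. Every crush pool was above every control pool, and the lowest crush pool was farther from the controls than the controls were from each other. The groups differed by 0.46 ± 0.10 on the log2 scale (SE, 95% interval from 0.23 to 0.70). Its adjusted p of 0.0493 in limma was within the threshold while the fold change was not, so that snrpg did not pass. It was the only one of the 74 with an adjusted p of at most 0.05, a limit that 2.95% of all genes met with a higher and 1.04% with a lower value after crush. The adjusted p lay between 0.0658 and 0.136 with any 1 pool left out, and under median scaling snrpg passed, at 0.59 (adjusted p = 0.0147, in a range of 0.0147 to 0.136 over all fits). Under that scaling 532 of all genes with a symbol passed upwards, against 325 in the analysis reported.

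For snrpe, the log2 signal was 13.09, 13.24, 13.24 and 13.30 in the crush pools, against 12.99, 12.58, 12.97 and 13.01 in the control pools. The groups did not overlap, but control pool 2 lay well below the other 3 controls, and 3 of the 4 control pools were close to crush pool 1. The log2 fold change was 0.33 ± 0.13 (SE, adjusted p = 0.196 in limma). SmD1, from snrpd1, has an arginine-rich tail that is methylated before the ring is assembled. Its signal was 12.99, 13.15, 13.06 and 13.29 in the crush pools, against 12.89, 12.78, 12.78 and 12.90 in the control pools. The log2 fold change was 0.29 ± 0.10 (SE, adjusted p = 0.178), and its other probes, at 0.40 and 0.31, differed in the same direction by a little more. For snrpb, the ring gene with the highest mean signal, the values were 13.51, 13.51, 13.56 and 13.69 in the crush pools, against 13.36, 13.32, 13.33 and 13.40 in the control pools. The groups did not overlap and the control pools lay within 0.1 of each other, and the log2 fold change was 0.21 ± 0.09 (SE, adjusted p = 0.243).

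The other ring genes were snrpf at 0.30, snrpd2 at 0.27, snrpd3 at 0.22 and snrpd3l at 0.22 on the log2 scale, with adjusted p from 0.222 to 0.350 in limma. In snrpf and snrpd2 the groups overlapped, since snrpf in crush pool 1 (11.69) lay below control pool 2 (11.75), and snrpd2 in crush pool 1 (11.31) below control pool 2 (11.38). Crush pool 1 was the lowest crush pool for all 8 ring genes, and its median over the 8 genes was 0.14 above the control mean, against 0.30, 0.27 and 0.39 in crush pools 2, 3 and 4.

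Of the 3 snrp genes outside the ring, snrpc and snrpa of U1 had a higher mean in the crush pools and snrpa1 of U2 did not. These 3 do not cover U1 and U2, since snrpb2 had no matched probe and snrnp70 lies in the core list read below. The C protein of U1, from snrpc, helps U1 hold the 5′ splice site. Its log2 signal was 11.00, 11.08, 11.26 and 11.27 in the crush pools, against 10.71, 10.90, 10.80 and 10.77 in the control pools. The groups did not overlap, with a log2 fold change of 0.36 ± 0.11 (SE, adjusted p = 0.113 in limma). The gene of the A protein of U1, snrpa, was at 0.26 (adjusted p = 0.287) and its control pool 4 lay among the crush pools. For snrpa1, whose protein belongs to U2, the log2 fold change was -0.03 with a 95% interval from -0.36 to 0.29. It averaged 11.91 ± 0.24 in crush pools and 11.95 ± 0.14 in control pools (SD, n = 4 each). Among the 11 snrp genes the 95% intervals of snrpg, snrpc, snrpe and snrpf reached past 1.5-fold.

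**Figure D3:**
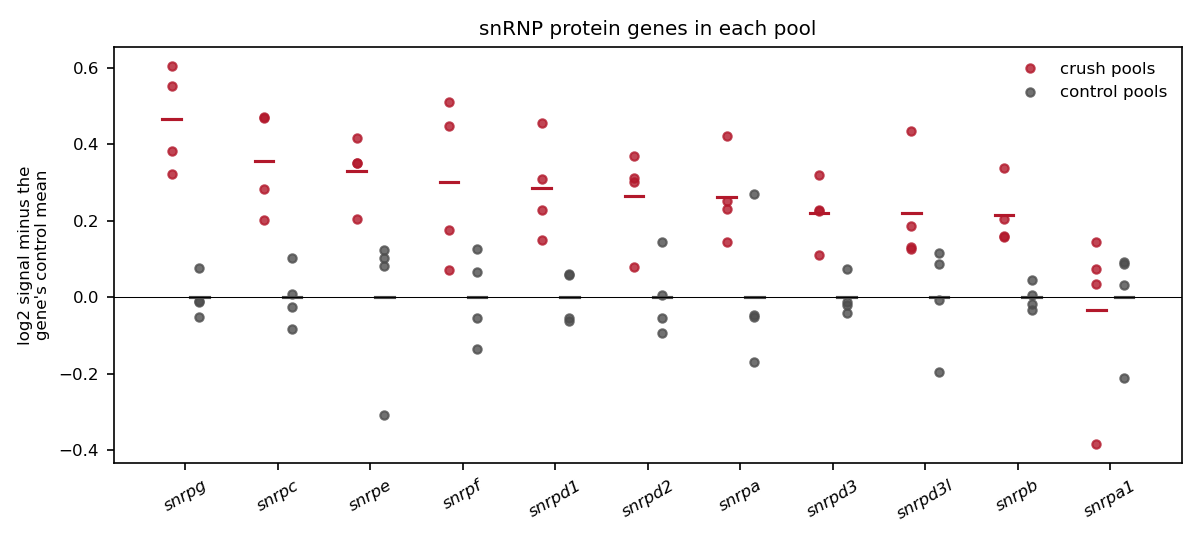
Log2 signal of the 11 snrp genes in each pool, given as the difference from the gene's control mean, with crush pools on the left and control pools on the right of each gene and bars at the group means. The 8 ring genes and snrpc and snrpa lie higher in the crush pools, by 0.21 to 0.46, and snrpa1 lies at -0.03.

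Of 11 marker lists, for retinal and other cell types and for dividing cells, 4 had summed signals that did not overlap between the groups. All 12 measured genes of a list for dividing cells, the MCM replication helicase and mitotic kinases and cyclins among them, had a higher mean in the crush pools and 5 were over-expressed, with the log2 of their summed signal at 13.45 to 13.81 in crush pools and 12.73 to 13.16 in control pools. Of 8 measured genes of retinal ganglion cells, 5 were under-expressed and 1, nefma, was over-expressed, with sums of 14.23 to 14.74 in crush pools and 15.48 to 15.98 in control pools. Of 8 genes of amacrine and horizontal cells 7 were lower, with sums of 16.11 to 16.48 in crush pools and 16.54 to 16.83 in control pools. Of 6 genes of bipolar cells 4 were lower, with sums of 15.002 to 15.40 in crush pools and 15.45 to 15.64 in control pools, and no gene of either list passed. No single bipolar gene had every crush pool below every control pool, and 2 of the amacrine and horizontal genes did. Over all genes, 6.47% had every crush pool below every control pool and 51.4% had a higher mean in the crush pools. Of all genes, 2.47% passed upwards and 0.883% downwards. A summed signal is weighted towards the brightest genes of its list. In the other 7 lists the sums overlapped and no gene passed. Among these, 5 of 6 rod genes were lower, 1 of them, saga, at -0.53 (adjusted p = 0.0317 in limma), with sums of 19.49 to 19.62 in crush pools and 19.54 to 19.70 in control pools, and 5 of 7 myeloid genes were higher, with sums of 12.38 to 13.24 in crush pools and 12.00 to 12.63 in control pools. No gene of the 11 lists was below background on every array. The part of these cell types in the differences of the snrp genes was not tested.

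The SF3A and SF3B complexes, which place U2 on the branch point, were read from 8 genes. Their log2 fold changes ran from -0.09 to 0.26, and 6 of the 8 were higher. The highest was sf3b4, which ties SF3B to the RNA upstream of the branch point, with 11.72, 12.03, 11.87 and 11.92 in the crush pools, against 11.48, 11.41, 11.78 and 11.82 in the control pools. Control pools 3 and 4 reached into the range of the crush pools, and the log2 fold change was 0.26 ± 0.13 (SE, adjusted p = 0.318 in limma). Its second probe was at 0.33 with an adjusted p of 0.0934. The lowest was sf3b6, the p14 protein that touches the branch point adenosine, at -0.09 with a 95% interval from -0.37 to 0.19.

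All 3 sf3a genes lay close to 0, sf3a2 at 0.09, sf3a3 at 0.03 and sf3a1 at -0.01, and their intervals stayed inside 1.5-fold. The pools of sf3a1 differed more among themselves than the groups did, averaging 12.16 ± 0.23 in crush pools and 12.17 ± 0.34 in control pools (SD, n = 4 each). The least certain gene of all 74 was sf3b5, a small SF3B subunit. It had 10.96, 10.86, 11.80 and 10.75 in the crush pools, against 11.13, 11.61, 10.09 and 11.11 in the control pools. Crush pool 3 was the highest of all pools and control pool 3 the lowest, and the 95% interval, -0.68 to 0.88, passed 1.5-fold in both directions. The value of sf3b3 rests on 3 crush pools, since its spot on crush array 1 was marked as an outlier and left out.

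The 3 u2af genes lay near 0, each with its interval inside 1.5-fold. The small subunit, u2af1, which reads the AG of the 3′ splice site, had a log2 fold change of 0.16 (95% interval from -0.09 to 0.40). The large subunit has 2 genes, u2af2a at 0.02 and u2af2b at 0.01, and u2af2b averaged 11.10 ± 0.08 in crush pools and 11.09 ± 0.05 in control pools (SD, n = 4 each). Its 95% interval, from -0.20 to 0.22, excludes a change of 1.5-fold.

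The 12 prpf genes divided evenly, 6 higher and 6 lower. The lowest was prpf3, a protein of the U4/U6 snRNP and one of the human retinitis pigmentosa genes, which had the most negative change of all 74 genes. Its log2 signal was 10.09, 10.02, 10.29 and 9.84 in the crush pools, against 10.59, 10.61, 10.58 and 10.22 in the control pools. Of the controls, 3 stood close together above every crush pool and control pool 4 lay below crush pool 3. The log2 fold change was -0.44 ± 0.14 (SE, 95% interval from -0.75 to -0.13, adjusted p = 0.129 in limma), and its second probe was at -0.23 (adjusted p = 0.280).

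The other human retinitis pigmentosa genes of this family stayed near 0. The log2 fold change was -0.04 for prpf31, 0.11 for prpf6 and 0.04 for prpf4. For prpf8, the core of U5, the 95% interval ran from -0.22 to 0.22, and all 4 intervals lay inside 1.5-fold. The 5 probes of prpf8 ranged from -0.15 to 0.12. For prpf38a, an activation factor, the probes disagreed most of all members: its brightest probe was at -0.30 (adjusted p = 0.288 from limma) and the other at 0.17 (adjusted p = 0.405). Beside prpf38a, only prpf3 of this family had an interval that reached past 1.5-fold.

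LSm proteins form rings like the Sm proteins, LSm2 to LSm8 on U6 RNA in the nucleus and LSm1 to LSm7 on decaying mRNA in the cytoplasm. Of the ring genes lsm1, lsm4, lsm5, lsm6 and lsm7 were measured. They did not move as 1 group, with 4 higher and 1 lower and log2 fold changes from -0.24 to 0.29. The highest ring gene was lsm6, at 0.29 (adjusted p = 0.215 from limma), and the lowest lsm7, with 11.75, 11.94, 12.01 and 12.03 in the crush pools, against 12.19, 12.32, 12.18 and 12.01 in the control pools. In lsm7, 3 of the controls were above all crush pools and control pool 4 lay within the crush range, and the adjusted p was 0.279. For lsm4 the log2 fold change was 0.05 (95% interval from -0.20 to 0.30). The 4 other genes, lsm12a, lsm12b, lsm14aa and lsm14b, are not known as ring proteins, and their products are linked to translation and mRNA storage. The highest of them, and of the family, was lsm12a, at 0.29 ± 0.12 (SE, adjusted p = 0.245). All 9 lsm genes had intervals inside 1.5-fold.

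The 15 srsf genes encode SR proteins, which bind exonic enhancers and recruit U1 and U2AF. They were mixed in direction, with 6 higher and 9 lower and log2 fold changes from -0.21 to 0.26, and the 95% interval of all 15 lay inside 1.5-fold. The highest was srsf10b, whose human counterpart is a repressor when it loses its phosphates. It had 13.12, 13.09, 13.07 and 13.28 in the crush pools, against 12.72, 12.82, 13.06 and 12.93 in the control pools. No crush pool fell below a control pool, but crush pool 3 and control pool 3 were nearly equal, and the log2 fold change was 0.26 ± 0.11 (SE, adjusted p = 0.249 in limma). The lowest was srsf2b, a counterpart of SC35, a protein of nuclear speckles, with 14.05, 14.03, 14.07 and 14.00 in the crush pools, against 14.38, 14.16, 14.39 and 14.04 in the control pools. Control pool 4 lay within the crush pools, and the log2 fold change was -0.21 ± 0.11 (SE, adjusted p = 0.346), while its second probe was at 0.07. The gene srsf5a averaged 14.57 ± 0.05 in crush pools and 14.67 ± 0.07 in control pools (SD, n = 4 each), and all 5 of its probes were lower, at -0.32 to -0.10.

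The 16 hnrnp genes encode nuclear RNA-binding proteins that coat pre-mRNA, and many of them silence splice sites. Of these, 11 were higher and 5 lower. In 6 (37.5%) every crush pool was above every control pool, against 10.3% of all genes. This count rests on the brightest probes, and not all other probes of these 6 genes were higher. The median difference of the 16 genes from their control means was 0.108 to 0.222 in crush pools and -0.048 to 0.107 in control pools. The highest was hnrnpr, a protein of axons and nuclei of neurons in mammals, with 12.45, 12.60, 12.57 and 12.32 in the crush pools, against 12.15, 11.98, 12.02 and 12.27 in the control pools. The groups did not overlap, with crush pool 4 and control pool 4 as the nearest pair, and the log2 fold change was 0.38 ± 0.11 (SE, 95% interval from 0.13 to 0.64, adjusted p = 0.112 in limma). Its second probe was at 0.40 (adjusted p = 0.124) and its dimmest at 0.10. The lowest was hnrnpd, the AU-rich element binding protein AUF1, with 11.00, 11.14, 11.22 and 11.14 in the crush pools, against 11.24, 11.50, 11.38 and 11.44 in the control pools. Here every crush pool was below every control pool, and the log2 fold change was -0.26 ± 0.10 (SE, adjusted p = 0.204). The gene with the highest mean signal of the family, hnrnpa0a, was at -0.10 (95% interval from -0.37 to 0.17). Intervals that reached past 1.5-fold were those of hnrnpr, hnrnpub, hnrnpc and hnrnpul1, the last with control pool 1 at 8.46 and the other 7 pools between 9.17 and 9.54. The brightest probe of hnrnpc was at 0.33 and its other probe at 0.03.

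Zebrafish carry many of these genes in pairs, and 12 pairs were compared by the difference between their responses, with an exact two-sided permutation test over pools added after the values were seen. In 7 pairs both genes differed in the same direction, as in snrpd3 and snrpd3l at 0.22 each. In 2 of the 12 pairs the differences did not overlap between groups. For scale, 10.3% of all single genes had every crush pool above every control pool and 6.47% had every crush pool below. The share among other pairs of genes was not computed. The gene hnrnph1 was at -0.22 and its paralogue hnrnph1l at 0.28, a difference of -0.50 on the log2 scale (SD over pools 0.17 in crush and 0.07 in control, n = 4 each, exact p = 0.0286, the smallest that 4 against 4 pools allow). For hnrnpa0a and hnrnpa0b the difference was -0.31 (exact p = 0.0286). Adjusted over the 12 pairs both were at 0.171, but at least 7 pairs would have to reach the smallest p for any to come to 0.05, so that this adjustment could not have called a lone pair. The second probe of hnrnph1, at 0.09, did not repeat the negative value of the brightest. For hnrnpa0b the brightest probe was at 0.21 and its other probes at 0.003, 0.07 and -0.09. Probes of hnrnpa0a lay from -0.10 to -0.03, so that the difference of this pair rests mainly on the brightest probe of hnrnpa0b. Probes of paralogues may share sequence, and how well they separate such pairs is not known here, since probe sequences were not used.

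Where a gene had several probes, they differed by less than the fold threshold (0.585) but did not always have the same sign. Of 52 genes with more than 1 probe, all probes had the same sign in 35, the median range of the log2 fold change within a gene was 0.11 and the largest 0.47. None of the 163 probes passed in either direction, against 1.89% and 0.865% of all probes. At an unadjusted p of at most 0.05 there were 23 higher and 3 lower, against 10.1% and 9.34% of all probes. Of the 163, 162 were well above background on all 8 arrays, as were 69.5% of all probes.

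Splicing genes that the symbol stems miss were read from 4 lists, other core spliceosome proteins, factors of snRNP assembly, kinases of SR proteins and other splicing regulators. Of 180 measured genes in these lists 104 were higher and 76 lower, with a median log2 fold change of 0.03, and 2 were over-expressed and none under-expressed, against 2.47% and 0.883% of all genes. For the 82 core genes the median was 0.04, for the 32 assembly genes 0.10, for the 7 kinases -0.02 and for the 59 regulators -0.03. The assembly list holds the SMN complex and the methylosome, which load Sm rings onto RNA. Of its 32 genes 23 (71.9%) were higher, against 51.4% of all genes, and 9 were lower, but none passed. The log2 fold changes ran from -0.83 to 0.38, so that the largest was a decrease. In 7 of the 32 (21.9%) every crush pool was above every control pool, against 10.3% of all genes. In 1 (3.1%) every crush pool was below, against 6.47% of all genes.

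The core gene that was over-expressed was snu13b. Its human counterpart binds U4 RNA in the tri-snRNP and also the box C/D RNAs that guide methylation of rRNA, so that it belongs to the spliceosome and the nucleolus alike. Its log2 signal was 11.88, 11.96, 12.02 and 12.16 in the crush pools, against 10.89, 11.18, 10.97 and 11.20 in the control pools. The groups stood far apart, with a log2 fold change of 0.94 ± 0.12 (SE, adjusted p = 0.00486 in limma), and its second probe passed as well, at 0.84 (adjusted p = 0.0499). The regulator that was over-expressed was elavl4, the neuronal RNA-binding protein HuD, which in mammals steadies mRNAs of growing axons and also alters splicing. It had 12.81, 12.90, 13.30 and 12.24 in the crush pools, against 10.34, 10.92, 11.01 and 10.49 in the control pools. The log2 fold change was 2.12 ± 0.24 (SE, adjusted p = 0.00342), and its other 2 probes were at 2.37 and 2.05. Both genes passed in all 17 other fits. Another gene, khdrbs1b, a counterpart of human SAM68, was singled out after its values were seen. Every crush pool was below every control pool, at -0.43 (adjusted p = 0.0437 in limma), and the change fell short of the fold threshold.

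**Figure D4:**
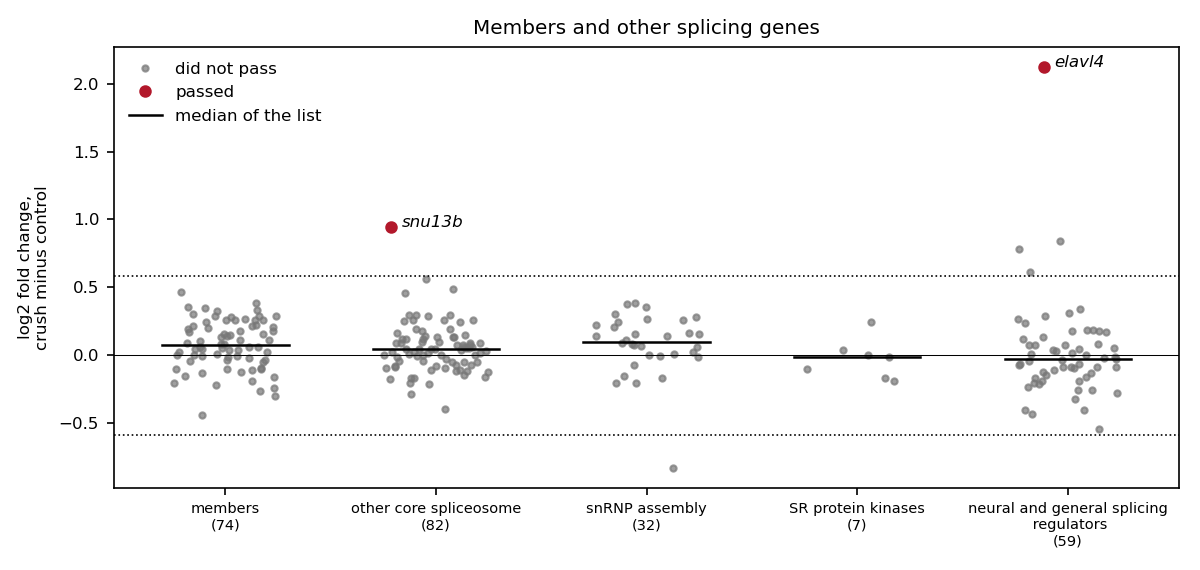
Log2 fold change (crush minus control) of the 74 genes chosen by symbol stem (members) and of the 4 other splicing lists, 1 point a gene with the list median as a bar and dotted lines at 1.5-fold either way. The points that passed are snu13b at 0.94 and elavl4 at 2.12, and none of the 74 did.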

How the data were processed

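Per the labels and the deposited scanner files, RNA of the 8 pools was hybridised to one-colour arrays and read by Feature Extraction 10.7.3.1 as median spot intensity with a local background, which are the values used here. The authors also deposited log2 values, which were recomputed from the intensities by normexp (offset 16) and quantile normalisation of all spots and served as an alternative. In the analysis reported, background was corrected by normexp with offset 0, control spots and outlier spots were removed, arrays were quantile normalised, and replicate spots were averaged per probe. Testing used lmFit and eBayes (limma 3.58.1, R 4.3.3) with group as the only term, on probes having 2 or more values a group. Symbols came from a zebrafish RefSeq table (GRCz12tu, names only), which covered 25598 of 27369 RefSeq probes. Named genes are, in each of the 8 stem families, those with the highest and lowest change and the highest mean signal, and any that passed in the other lists. The values of 1 gene, which is counted among the 74, are not reported here. Further genes were picked with their values in view: prpf8, prpf31, prpf4, prpf38a, lsm6, khdrbs1b, sf3b5, sf3b3, sf3a3, u2af2a, hnrnpub, hnrnpc, hnrnpul1, the paralogue pairs and the remaining snrp genes. Members and lists were chosen with earlier results of these data known. The fit was tested on simulated data. Alternatives were other offsets, scalings, filters and gene summaries, the replicate number as a block, and leaving out each pool. Tables and plots were written in Python 3.11.15.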

Additional observations from a re-analysis of the deposited data

Results flagged for a closer look

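In groups of 4 pools, a pool was singled out when its gap to the nearest other pool exceeded the 95% critical value of Dixon's test, taken as a share of the range. For lsm12a, control pool 2 was far above the other controls, with a log2 signal of 12.70. For prpf3, control pool 4 was far below the other controls, with a log2 signal of 10.22. These are genes named by the family rule, and pools of other genes were singled out too, among them control pool 2 of snrpe, at 12.58. Over all 74 genes and both groups, 9 of 148 groups held such a pool, and chance gives about 1 in 20. The crush group of sf3b3 counted here lacked 1 pool.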

How the results depend on the processing

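No member passed in either direction in the 17 other fits, with 1 exception: under median scaling 1 was over-expressed, snrpg. With no fold threshold 1 member was over-expressed, again snrpg, and 1 gene of the other lists under-expressed, khdrbs1b. Leaving out 1 pool gave 0 members in each direction, a median log2 fold change of the members from 0.06 to 0.10, and in the other lists 2 to 3 over-expressed and 0 to 1 under-expressed genes; rbmx (0.77, adjusted p = 0.0144 from limma) and gemin8 (-1.10, adjusted p = 0.0312) passed without control pool 4. Median scaling gave 4 over-expressed genes in the other lists, dnajc8 and rbmx beside snu13b and elavl4, and a median of 0.20 for the members. It also raised the calls over all genes with a symbol, to 532 upwards and 276 downwards, against 325 and 116 in the analysis reported. The median of the members was 0.10 with the processed signal of the scanner software and 0.05 with the mean of all probes of a gene. The median over all genes was 0.04 under median scaling and -0.04 with the processed signal, against 0.01 in the analysis reported.

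Signs changed in values near 0 that did not pass. Under median scaling sf3a1 was at 0.11, sf3b6 at 0.018, snrpa1 at 0.10, srsf5a at 0.0025 and hnrnpa0a at 0.019, and with the processed signal snrpa1 was at 0.045. Leaving out single pools gave -0.17 to 0.10 for sf3a1, -0.015 to 0.049 for u2af2b, -0.10 to 0.084 for snrpa1 and -0.026 to 0.093 for lsm4. With the replicate number as a block, 0 members and 3 other splicing genes (esrp1, not well above background on any array, beside snu13b and elavl4) were over-expressed, and the adjusted p of snrpg was 0.132. Same-numbered pools deviated together with correlations from -0.12 to 0.18, so that the numbers were not taken as pairs. Over all probes 1203 passed, 2380 under median scaling, 488 with this block and 482 to 1533 without 1 pool. Of the fits without 1 pool, that without control pool 4 gave the most.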
